A study of Homo sapiens with 40 samples.

Results

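Expression of 9 genes of innate humoral defence was followed in U87 cells, an established human glioblastoma cell line. They are the complement components C1R, C1S, C3, CFB and CFD, the complement regulators CFI, CD55 and SERPING1, and the long pentraxin PTX3, and all probe sets that map to these symbols were taken. The array held 14 such probe sets, out of 54715 in all, and the 9 genes are out of 19774 that could be named. A filter on dim genes kept 8 of the 9 for testing, and left out CFD.

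The 40 Affymetrix arrays covered 7 stable U87 lines. All carried their endogenous IRE1, the endoplasmic reticulum (ER) stress sensor with kinase and RNase activity. One line held an empty vector (EV). The others overexpressed wild-type IRE1 (WT), a variant with a change in the cytosolic kinase domain (S769F or the truncating Q780*), a variant with a change in the luminal domain (P336L or A414T), or a dominant negative form (IRE1-DN). Each line was left under basal conditions or stressed with tunicamycin, which blocks N-linked glycosylation, for 16 h at 0.5 µg/ml. Each group had 3 arrays, except that the IRE1-DN groups had 2, numbered 2 and 3.

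The constructs were driven from a lentivector with a CMV promoter, puromycin resistance and copGFP. The labels give the variant lines clone numbers, while the methods describe polyclonal populations selected on puromycin. Each construct was read in a single line, so that an effect of a construct cannot be told apart from other differences between lines. The labels list IRE1-DN cells under the same vector and the methods do not, so that EV cells may not be the matched control of IRE1-DN cells. The labels call the arrays biological replicates without saying whether cultures were separate, so the p-values reflect only how far these samples spread, which may be technical. In bulk RNA, fewer expressing cells and less mRNA per cell cannot be told apart.

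Values are log2 signals made with RMA, in which 1 unit is a 2-fold difference and levels of different genes cannot be compared. Array medians ran from 4.55 to 4.62 and the 40th percentile of all probe sets, used as the filter, from 4.23 to 4.31. Arrays of a group correlated at r of 0.9762 or more over all probe sets. ERN1, which encodes IRE1, was read by 3 probe sets. On the brightest the basal mean was 5.04 in IRE1-DN and 6.07 to 6.42 in the other 6 lines, EV cells (6.09) among them. On the second it was 4.84 in IRE1-DN, 5.18 in EV, 5.27 in P336L, 5.76 in WT, 6.02 in A414T, 6.06 in Q780* and 6.25 in S769F cells, and on the third 4.55 in IRE1-DN, 5.06 in EV and 4.88 to 5.36 in the rest. Every probe set was thus lowest in IRE1-DN cells, and 1 of 3 had every other line above EV cells. Which stretch of the transcript they read, and so whether they see the constructs, is not known here. Of the glioma markers, VIM lay between 12.96 and 13.38, CD44 between 11.81 and 12.97 and CHI3L1 between 5.19 and 11.21. GFAP reached the 40th percentile on 2 of 40 arrays, S100B on none, OLIG2 on 15, SOX2 on 32 and NES on 37. Of 8 macrophage markers, PTPRC and CD14 reached it on 0 of 40 arrays and TYROBP on 4, while CSF1R did on 29, AIF1 on 38, CD163 on 39, and ITGAM and CD68 on all 40. The mean level of the 8 markers lay between 4.51 and 4.87 on every array. The brightest, CD68, is a lysosomal protein and had group means of 6.18 and 6.04 in basal and stressed IRE1-DN cells and 7.06 to 8.19 in the other groups, and the part of these markers in the results was not tested.

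Complement is a cascade of plasma proteases made mainly in the liver and, locally, by many other cells, tumour cells among them. C1r and C1s are the paired proteases of the C1 complex, which starts the classical pathway. C3 is the central component on which all pathways converge. Factor B and factor D build the C3 convertase of the alternative pathway. Factor I inactivates C3b and C4b, CD55 (decay-accelerating factor) dissociates convertases on the cell surface, and the C1 inhibitor encoded by SERPING1 blocks C1r and C1s. Pentraxin 3 is a secreted pattern recognition molecule that binds C1q and factor H and is induced by IL-1, TNF and NF-κB signalling. All these proteins pass through the ER.

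RefSeq promoter windows (GRCh38.p14) matched 6 of the 9 genes, namely C1R, CFB, CFI, CFD, CD55 and PTX3. The 250 bases before the start of transcription are shown for PTX3, which responded most unlike across lines, for CD55, which rose on tunicamycin in every line, and for CFB. All are on the plus strand. Capitals mark matches, on either strand, to an NF-κB type motif (GGG and CC with any 5 bases between them), to CCAAT or to CCACG. The AP-1 type motif TGANTCA and the letters TGACGTG were also searched and matched in none of the 3.
PTX3, chr3:157436600-157436849: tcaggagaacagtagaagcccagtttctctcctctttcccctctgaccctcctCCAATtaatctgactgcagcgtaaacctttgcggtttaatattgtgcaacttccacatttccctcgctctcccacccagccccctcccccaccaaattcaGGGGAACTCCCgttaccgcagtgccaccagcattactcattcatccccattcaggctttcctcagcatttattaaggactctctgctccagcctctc
CD55, chr1:207321428-207321677: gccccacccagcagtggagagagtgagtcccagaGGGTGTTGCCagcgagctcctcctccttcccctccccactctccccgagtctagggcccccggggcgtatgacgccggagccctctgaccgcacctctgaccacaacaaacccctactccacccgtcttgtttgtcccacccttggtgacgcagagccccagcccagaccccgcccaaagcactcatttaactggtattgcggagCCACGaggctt
CFB, chr6:31945845-31946094: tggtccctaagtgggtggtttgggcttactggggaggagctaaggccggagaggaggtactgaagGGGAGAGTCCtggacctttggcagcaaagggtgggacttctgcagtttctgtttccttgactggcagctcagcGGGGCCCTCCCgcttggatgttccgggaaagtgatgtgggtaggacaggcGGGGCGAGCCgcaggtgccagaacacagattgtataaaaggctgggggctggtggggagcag
PTX3 held 2 overlapping NF-κB type matches that start 97 and 96 bases before the start of transcription and a CCAAT at 197. CD55 held 1 such match at 216 and a CCACG at 11, and CFB held 4, at 185, 112, 111 and 62. The NF-κB type motif occurs in 54.4% of 35116 promoter windows of this length, CCAAT in 32%, CCACG in 33.5%, the AP-1 type motif in 6.57% and TGACGTG in 1.68%. Each match is a description of letters only.

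Over the 14 groups, line and treatment together, PTX3, C3, C1S, C1R and CFI varied most, and SERPING1 and CFD least. Group means spanned 4.05 log2 units for PTX3, 3.92 for C3, 3.87 for C1S, 3.23 for C1R and 2.86 for CFI. The span was 2.33 for CD55, 1.99 for CFB, 0.35 for SERPING1 and 0.27 for CFD. Both ends of the PTX3 span were A414T cells, and among the basal lines alone PTX3 spanned 1.72 and CD55 0.56, beside 3.92 for C3. No array reached the filter for CFD, which lay between 3.44 and 3.98, and 6 of 40 did for SERPING1, between 3.78 and 4.44. SERPING1 was tested and passed in none of the 27 comparisons, where its lowest adjusted p from limma was 0.11.

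**Figure D1:**
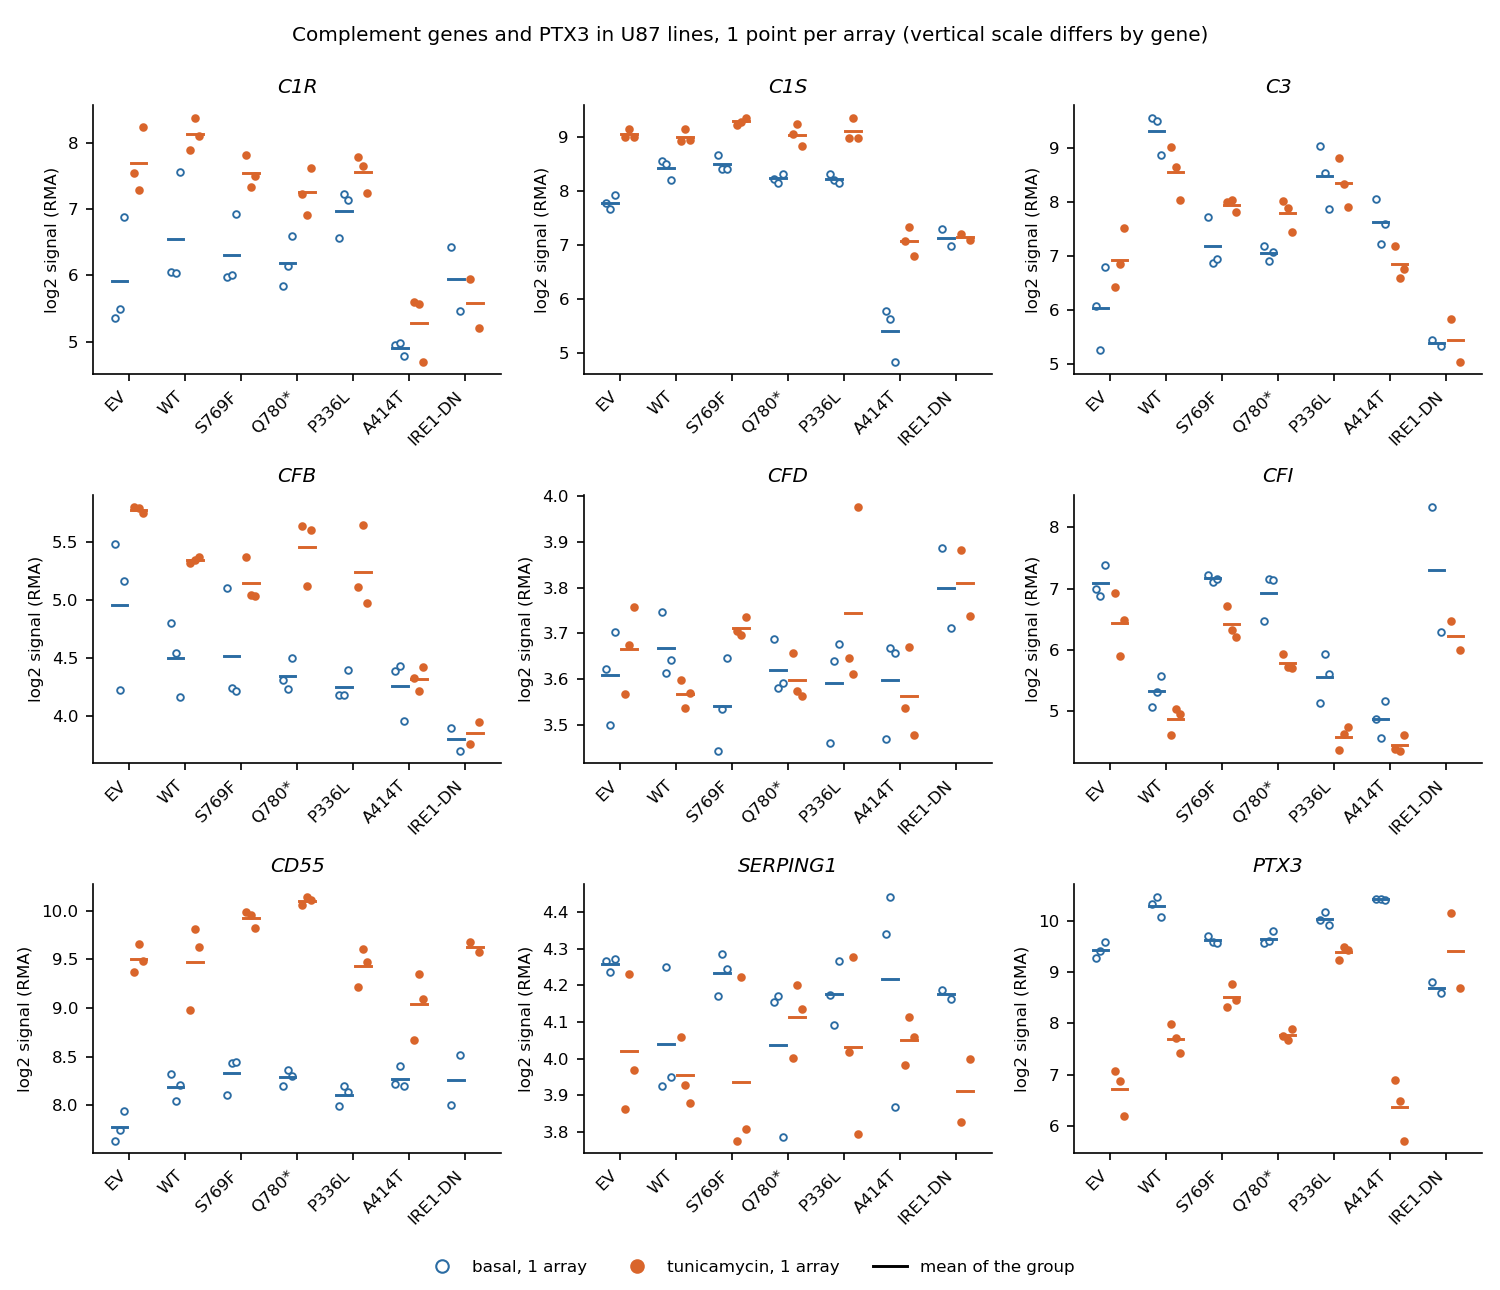
The log2 signal (RMA) of the 9 genes on each of 40 arrays, by line, with open blue points for basal conditions, filled orange points for tunicamycin and a bar at each group mean. A414T cells lie lowest for C1R and C1S, WT and P336L cells highest for C3, and PTX3 falls on tunicamycin in most lines but not in IRE1-DN cells.

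Under basal conditions, members that passed the test (adjusted p under 0.05 over 17191 genes) were counted in each line against EV cells. All 6 comparisons share the same 3 EV arrays. In WT cells 4 of 8 passed, with C3, C1S and PTX3 higher and CFI lower, while 8.58% of all genes passed. In S769F cells 3 passed, all higher (C3, C1S and CD55), against 6.15% of all genes, and in Q780* cells 0 passed, against 5.18%. At an unadjusted p under 0.05, C3, C1S, CD55 and CFB separated Q780* from EV cells by limma, the last lower, and the methods' t-test with Benjamini-Hochberg adjustment also called 0. In P336L cells C3 was higher and CFI lower, which makes 2 of 8 against 9.1% of all genes. A414T cells had 6 of 8 members past the test, with C3, CD55 and PTX3 higher and C1S, CFB and CFI lower, against 18.6% of all genes. In IRE1-DN cells 2 passed, C1S and CFB, both lower, against 27.7%.

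On tunicamycin the members separated the lines differently. In WT cells 3 of 8 passed (C3 and PTX3 higher, CFI lower), against 12.2% of all genes, and in P336L cells the same 3 genes passed in the same directions, against 12.2%. PTX3 alone passed in S769F cells, against 9.05% of all genes, and PTX3 and CD55 passed in Q780* cells, against 9.67%. A414T cells were lower than EV cells in 5 members (C1R, C1S, CFB, CFI and CD55) and higher in 0, against 24.9% of all genes in either direction. In IRE1-DN cells C3, C1R, C1S and CFB were lower and PTX3 higher, against 26% of all genes. The median log2 difference over the 8 tested members was -0.96 in A414T and -0.85 in IRE1-DN cells, beside -0.03 and -0.02 over all genes. In the other 4 lines it lay between -0.04 and 0.10.

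**Figure D2:**
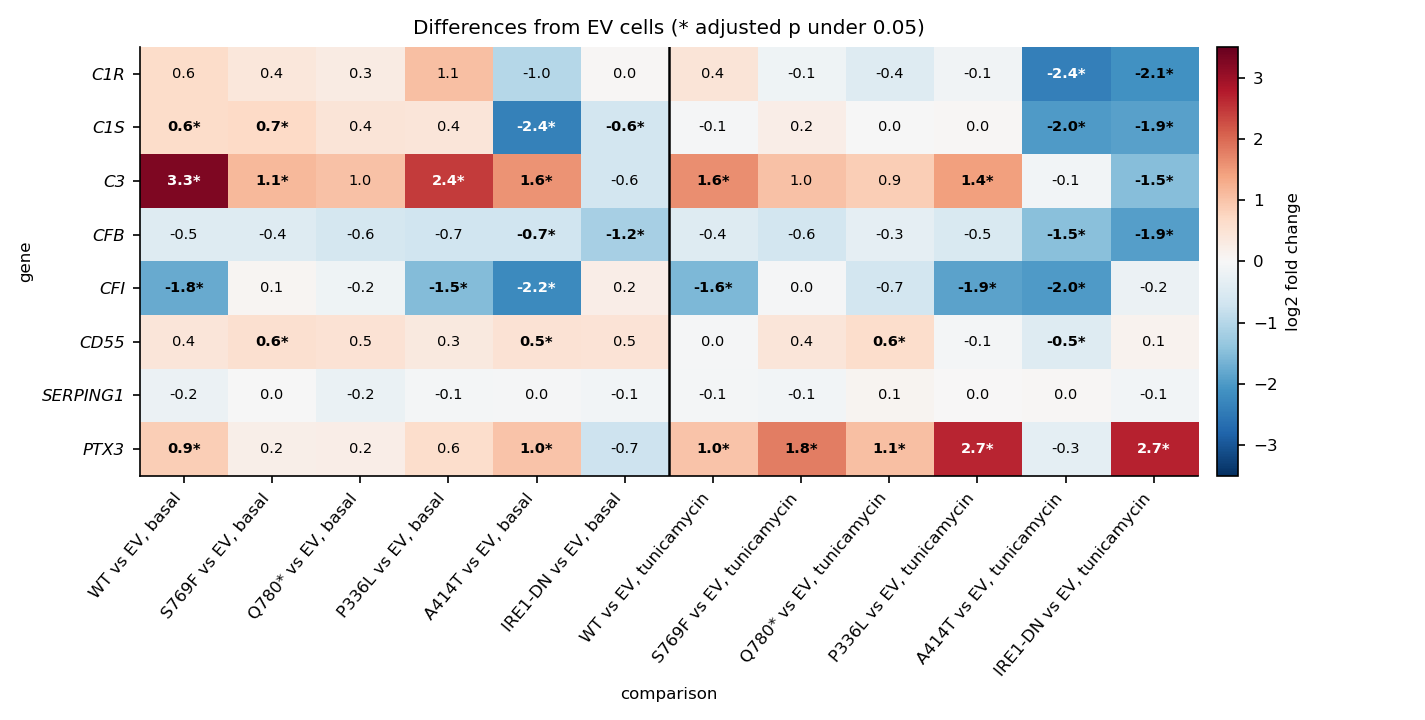
The log2 fold change of 8 tested genes in 6 lines against EV cells, under basal conditions (left of the line) and on tunicamycin (right). Red is higher and blue lower than EV cells, and bold values with an asterisk have an adjusted p under 0.05. The deepest red is C3 in basal WT cells (3.27) and the deepest blue values are C1R on tunicamycin and basal C1S in A414T cells.

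The classical pathway proteases C1R and C1S were lowest in A414T cells. The basal C1S log2 signal was 5.77, 5.62 and 4.84 in A414T, 7.76, 7.66 and 7.91 in EV, and 8.55, 8.50 and 8.20 in WT cells. It was 8.22, 8.15 and 8.31 in Q780*, 8.66, 8.41 and 8.39 in S769F, 8.30, 8.20 and 8.14 in P336L, and 7.30 and 6.97 in IRE1-DN cells. All A414T arrays lay below every other basal array, and the IRE1-DN arrays below the remaining lines. C1S was 5.17-fold lower in A414T than in EV cells (log2 fold change -2.37, standard error 0.17, adjusted p = 2.61e-12 from limma). It was 1.57-fold lower in IRE1-DN cells (log2 fold change -0.65, adjusted p = 0.00775), a call that was lost without basal IRE1-DN replicate 3 (adjusted p = 0.164). C1S was higher than in EV cells in WT (0.64 log2 units, adjusted p = 0.0102) and S769F cells (0.71 log2 units, adjusted p = 0.00532). The WT difference did not pass with the replicate number as a block (adjusted p = 0.0702), nor without EV replicate 2 (0.0598) or WT replicate 1 (0.0648) or 2 (0.0518), where each value is an adjusted p.

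On tunicamycin C1S rose in every line but IRE1-DN. Its signal was 8.998, 9.140 and 8.997 in EV, 8.92, 9.13 and 8.93 in WT, 9.04, 9.22 and 8.82 in Q780*, 9.22, 9.27 and 9.35 in S769F, and 8.97, 9.34 and 8.98 in P336L cells. In A414T cells it reached 7.07, 7.33 and 6.80, below the basal level of EV cells, and in IRE1-DN cells it stayed at 7.19 and 7.08. The A414T and IRE1-DN arrays overlapped each other and lay below those of all other lines. The rise was largest in A414T cells (1.66 log2 units, 95% interval 1.32 to 1.99) and smallest among the passing lines in WT cells (0.58, 0.24 to 0.91, adjusted p = 0.00822, but 0.0514 without basal WT replicate 3). In IRE1-DN cells the change was 0.00 (95% interval -0.41 to 0.42). The log2 response of IRE1-DN cells minus that of EV cells was -1.26 (adjusted p = 0.00273).

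C1R, whose gene lies beside C1S, varied more between replicates. Its basal signal was 4.94, 4.98 and 4.77 in A414T cells and 5.35, 5.49 and 6.88 in EV cells. It was 6.04, 6.04 and 7.56 in WT, 5.83, 6.14 and 6.58 in Q780*, 5.98, 6.00 and 6.92 in S769F, 6.55, 7.23 and 7.13 in P336L, and 6.42 and 5.46 in IRE1-DN cells. Replicate 3 was the highest basal array of EV, WT, S769F and Q780* cells, and so was its signal for bioB, a hybridization control, in each of these lines. In basal A414T cells replicate 2 was the highest for both. In basal P336L cells bioB was highest on replicate 3 (7.36) but C1R on replicate 2. In basal IRE1-DN cells replicate 3 had the higher bioB signal (7.65 against 7.04) and the lower C1R signal. The bioB signal was 6.516, 6.672 and 7.241 on the basal EV arrays and 6.965, 6.856 and 7.218 on the basal WT arrays, and its part in the C1R values was not tested beyond a covariate. No line passed against EV cells under basal conditions. With the bioB signal as a covariate, an alternative chosen after seeing the data, A414T cells did (log2 fold change -1.16, adjusted p = 0.0156, beside -1.01 and 0.0713 without it). With the replicate number as a block, which the arrays of WT and EV cells bore out, C1R was higher in WT cells (0.64 log2 units, adjusted p = 0.0245, beside 0.43 without the block).

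On tunicamycin C1R measured 7.54, 7.29 and 8.23 in EV cells but 5.59, 5.57 and 4.70 in A414T and 5.94 and 5.21 in IRE1-DN cells, and these ranges did not meet. In WT, S769F, Q780* and P336L cells it lay between 6.91 and 8.38. C1R was 5.29-fold lower than in EV cells in A414T cells (log2 fold change -2.40, standard error 0.39, adjusted p = 1.55e-05) and 4.33-fold lower in IRE1-DN cells (log2 fold change -2.11, standard error 0.43, adjusted p = 0.000305). It rose on tunicamycin in EV (1.78 log2 units, adjusted p = 0.000512), WT (1.58, adjusted p = 0.0021), S769F (1.25, adjusted p = 0.013) and Q780* cells (1.06, adjusted p = 0.031). The rises of S769F and Q780* cells did not pass with the bioB covariate (adjusted p = 0.114 and 0.0868). In S769F cells the bioB signal was 6.56, 6.48 and 7.19 on basal and 7.43, 7.35 and 7.13 on stressed arrays. In Q780* cells it was 6.73, 6.93 and 7.20 on basal and 7.18, 7.42 and 7.28 on stressed arrays. It ran in part with treatment, so that this covariate cannot be separated from the tunicamycin contrast. The S769F rise was also lost without basal replicate 1 or 2 or stressed replicate 1 (adjusted p = 0.0651, 0.0632 and 0.0591), and the Q780* rise without basal replicate 1 or 2 or stressed replicate 1 or 3 (adjusted p = 0.127, 0.0743, 0.0634 and 0.13). In P336L (0.58, -0.21 to 1.38), A414T (0.39, -0.41 to 1.18) and IRE1-DN cells (-0.37, -1.34 to 0.60) the log2 change and its 95% interval did not exclude 0. The log2 response of IRE1-DN minus that of EV cells was -2.15 (adjusted p = 0.0345). It did not pass without basal IRE1-DN replicate 2, stressed IRE1-DN replicate 3, basal EV replicate 1 or 2, or stressed EV replicate 3 (adjusted p = 0.0892 to 0.233). The 3′ minus 5′ log2 signal of ACTB, a measure of RNA quality, was 1.08 and 1.07 on the basal IRE1-DN arrays, the lowest of all 40, beside 2.03 and 1.67 on the stressed ones and 1.76 to 2.21 on the EV arrays. With it as a covariate the C1R difference was -1.71 and did not pass (adjusted p = 0.189), whereas basal C1R in A414T against EV cells did (log2 fold change -1.16, adjusted p = 0.0337). In IRE1-DN cells the ACTB signal ran with treatment, so that this covariate cannot be separated from their response. Its part was not tested further. Over the 14 group means C1R and C1S correlated at r = 0.905, on the same 40 arrays.

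C3, the component shared by all pathways, was highest in WT and P336L cells. Its basal signal was 9.562, 9.503 and 8.862 in WT, 9.04, 8.54 and 7.87 in P336L, 8.06, 7.21 and 7.59 in A414T, 7.71, 6.87 and 6.94 in S769F, and 7.19, 6.91 and 7.07 in Q780* cells. EV cells gave 6.07, 5.26 and 6.78 and IRE1-DN cells 5.45 and 5.33. Every array of WT, P336L, A414T, Q780* and S769F cells lay above every EV array, and the spread among the EV arrays was the widest of the basal groups. C3 was 9.65-fold higher in WT than in EV cells (log2 fold change 3.27, standard error 0.35, adjusted p = 4.22e-08), 5.44-fold in P336L (2.44, adjusted p = 6.31e-06) and 2.99-fold in A414T cells (1.58, adjusted p = 0.000945). In S769F cells the 2.20-fold difference passed (adjusted p = 0.0448) but not with the replicate number as a block (adjusted p = 0.135) or the ACTB 3′ minus 5′ signal as a covariate (adjusted p = 0.134), nor without S769F replicate 1 or 3 (adjusted p = 0.258 and 0.0586) or EV replicate 1 or 2 (adjusted p = 0.0939 and 0.337). In Q780* cells the log2 difference was 1.02 (adjusted p = 0.0916).

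C3 did not pass for a response to tunicamycin in any line, and its changes ran in both directions. On tunicamycin it measured 6.42, 6.85 and 7.51 in EV, 9.01, 8.64 and 8.04 in WT, 8.02, 7.89 and 7.45 in Q780*, 8.0, 8.03 and 7.82 in S769F, 8.82, 8.33 and 7.90 in P336L, 7.18, 6.59 and 6.75 in A414T, and 5.83 and 5.04 in IRE1-DN cells. The log2 change was 0.89 in EV cells (95% interval 0.18 to 1.60, adjusted p = 0.0502), and -0.75 in WT (-1.46 to -0.04) and -0.78 in A414T cells (-1.49 to -0.07). The log2 response of A414T minus that of EV cells was -1.67 (adjusted p = 0.034), but did not pass without basal A414T replicate 1 or 3, stressed A414T replicate 2 or 3, basal EV replicate 1 or 2, or stressed EV replicate 2 or 3. The adjusted p was then 0.0562 to 0.144, the highest without basal EV replicate 2. The response of WT cells differed from that of EV cells by -1.64 log2 units (95% interval -2.64 to -0.64), which did not pass after adjustment (adjusted p = 0.172). On tunicamycin C3 was still higher than in EV cells in WT (3.10-fold, adjusted p = 0.00124, or 0.0605 with the replicate number as a block) and P336L cells (2.68-fold, adjusted p = 0.0048). It was 2.82-fold lower in IRE1-DN cells (adjusted p = 0.00359, but 0.122 without IRE1-DN replicate 3). In order of the 14 group means, no group was separated from the next by more than the spread of its arrays.

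CFB, the protease subunit of the alternative pathway convertase, was dim, and 27 of 40 arrays reached the filter. Near the floor RMA compresses differences. The CFB signal was 5.48, 4.22 and 5.16 in basal EV cells and 5.81, 5.79 and 5.75 in EV cells on tunicamycin. On tunicamycin it lay between 4.97 and 5.65 in WT, S769F, Q780* and P336L cells, between 4.21 and 4.42 in A414T cells and between 3.75 and 3.94 in IRE1-DN cells, so that EV arrays lay above all others. CFB rose on tunicamycin in EV, WT, S769F, Q780* and P336L cells, by 0.63 to 1.11 log2 units. The change was 0.06 in A414T (95% interval -0.42 to 0.54). In IRE1-DN cells all 4 arrays lay below the filter, so that no change could be read. The rise in EV cells did not pass without basal EV replicate 2 (log2 fold change 0.46, adjusted p = 0.132), nor the rise in S769F cells without basal S769F replicate 2 or 3 or any stressed S769F replicate (adjusted p = 0.0549 to 0.188).

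Against EV cells on tunicamycin CFB was 2.76-fold lower in A414T cells (adjusted p = 1.49e-05), 1 of whose 3 arrays lay below the filter. In IRE1-DN cells it was at least 2.87-fold lower (adjusted p = 7.81e-07), a bound that sets each IRE1-DN array at its own 40th percentile. In WT cells the log2 fold change of -0.44 did not pass (adjusted p = 0.285), but it did with only the arrays compared (adjusted p = 0.0242), also when those arrays were blocked by replicate number (0.0495), and by the methods' t-test with Benjamini-Hochberg adjustment (0.0132). Under basal conditions CFB was at least 1.63-fold lower in IRE1-DN cells by the same rule (adjusted p = 0.000878). It was also lower in A414T cells (log2 fold change -0.70, adjusted p = 0.0343), though the arrays of A414T and EV cells overlapped and the call was lost without A414T replicate 3, EV replicate 1 or EV replicate 3 (adjusted p = 0.186, 0.291 and 0.136). The other CFB probe set lay below the filter on all arrays. CFD, the protease that cleaves factor B, was not measured above that level in any line, so that no statement on its change is possible.

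CFI, the protease that degrades C3b and C4b, was lower in WT, P336L and A414T cells than in the other 4 lines. Its basal signal was 5.07, 5.32 and 5.58 in WT, 5.13, 5.94 and 5.61 in P336L, and 4.87, 4.56 and 5.17 in A414T cells. It was 6.99, 6.88 and 7.39 in EV, 6.47, 7.16 and 7.15 in Q780*, 7.22, 7.11 and 7.16 in S769F, and 8.33 and 6.29 in IRE1-DN cells, whose arrays lay farthest apart. The lower and the higher set of lines did not overlap. CFI was 3.40-fold lower than in EV cells in WT (adjusted p = 0.000177), 2.88-fold in P336L (adjusted p = 0.000964) and 4.65-fold in A414T cells (adjusted p = 2.12e-06). In S769F (0.08, 95% interval -0.56 to 0.72) and Q780* cells (-0.16, -0.80 to 0.48) the interval of the log2 difference excluded changes of that size. In the same WT, P336L and A414T cells basal C3 was higher than on these EV arrays, and the 14 group means of C3 and CFI correlated at r = -0.59. C3 also passed as higher in basal S769F cells, a call lost without single arrays, where CFI did not pass. On tunicamycin the mean C3 signal was 6.84 in A414T and 6.93 in EV cells, while CFI stayed lower in A414T cells.

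On tunicamycin CFI kept this order. It measured 6.94, 5.91 and 6.49 in EV, 5.93, 5.73 and 5.71 in Q780*, 6.72, 6.32 and 6.20 in S769F, and 6.48 and 5.99 in IRE1-DN cells. It was 4.61, 5.04 and 4.96 in WT, 4.37, 4.62 and 4.74 in P336L and 4.39, 4.35 and 4.61 in A414T cells, again below all other lines. The difference from EV cells was 2.98-fold in WT (adjusted p = 0.000602), 3.65-fold in P336L (adjusted p = 7.04e-05) and 3.99-fold in A414T cells (adjusted p = 1.04e-05). The log2 response to tunicamycin was negative in all 7 lines, from -0.42 to -1.14. It passed in Q780* (-1.14, adjusted p = 0.00442), P336L (-0.98, adjusted p = 0.0181) and IRE1-DN cells (-1.08, adjusted p = 0.0455). The fall in IRE1-DN cells rested on basal replicate 2, without which the log2 change was -0.06 (adjusted p = 0.952), and did not pass without stressed replicate 2 or 3 (adjusted p = 0.0598 and 0.301) or with the ACTB covariate (adjusted p = 0.143). In these cells that covariate ran with treatment and cannot be separated from the fall. The fall in P336L cells was lost without basal replicate 2 or 3 or stressed replicate 1 (adjusted p = 0.107, 0.052 and 0.0701). No line differed from EV cells in its response.

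CD55, which protects cells from their own complement, rose on tunicamycin in all 7 lines. Its basal signal was 7.64, 7.75 and 7.94 in EV, 8.32, 8.04 and 8.21 in WT, and 8.22, 8.40 and 8.20 in A414T cells, and lay between 7.99 and 8.51 in S769F, Q780*, P336L and IRE1-DN cells. On tunicamycin it was 9.37, 9.66 and 9.48 in EV, 8.97, 9.81 and 9.63 in WT, 10.05, 10.14 and 10.11 in Q780*, 9.99, 9.96 and 9.82 in S769F, 9.22, 9.61 and 9.47 in P336L, 8.67, 9.35 and 9.10 in A414T, and 9.67 and 9.57 in IRE1-DN cells. In no line did basal and stressed arrays overlap. The rise was 3.31-fold in EV (log2 fold change 1.73, standard error 0.17, adjusted p = 2e-09) and 3.52-fold in Q780* cells (1.81, adjusted p = 3.59e-10), and smallest, 1.70-fold, in A414T cells (0.77, adjusted p = 0.00044). The log2 response of A414T minus that of EV cells was -0.96 (adjusted p = 0.00942), and no single array removed this call.

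On the representative probe set, differences between lines in CD55 were small. It was higher than in EV cells in basal S769F (0.56 log2 units, adjusted p = 0.0403, but 0.0582 with the replicate number as a block) and A414T cells (0.50, adjusted p = 0.0341), and in Q780* cells on tunicamycin (0.60, adjusted p = 0.0163). It was lower in A414T cells on tunicamycin (-0.46, adjusted p = 0.0398). With the ACTB covariate the S769F and stressed A414T calls did not pass (adjusted p = 0.0696 and 0.0542). Each of these 4 calls rested on single arrays. The S769F call was lost without S769F replicate 2 or 3 or EV replicate 1 or 2 (adjusted p = 0.113 to 0.157), and the basal A414T call without any A414T replicate or EV replicate 1 or 2 (adjusted p = 0.0543 to 0.142). The Q780* call was lost without stressed Q780* replicate 2 or EV replicate 1 or 3 (adjusted p = 0.0547 to 0.0903), and the stressed A414T call without A414T replicate 1 or 3 or EV replicate 2 or 3 (adjusted p = 0.0669 to 0.268). The 3 CD55 probe sets rose together on tunicamycin, with 1 exception in 21 tests, in IRE1-DN cells (log2 fold change 0.96, adjusted p = 0.0586). Under basal conditions they differed in size in IRE1-DN cells. There the other 2 probe sets were higher than in EV cells by 1.59 (adjusted p = 0.000175) and 1.25 log2 units (adjusted p = 0.000418). The representative one differed by 0.48 in the same direction (adjusted p = 0.0514).

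**Figure D3:**
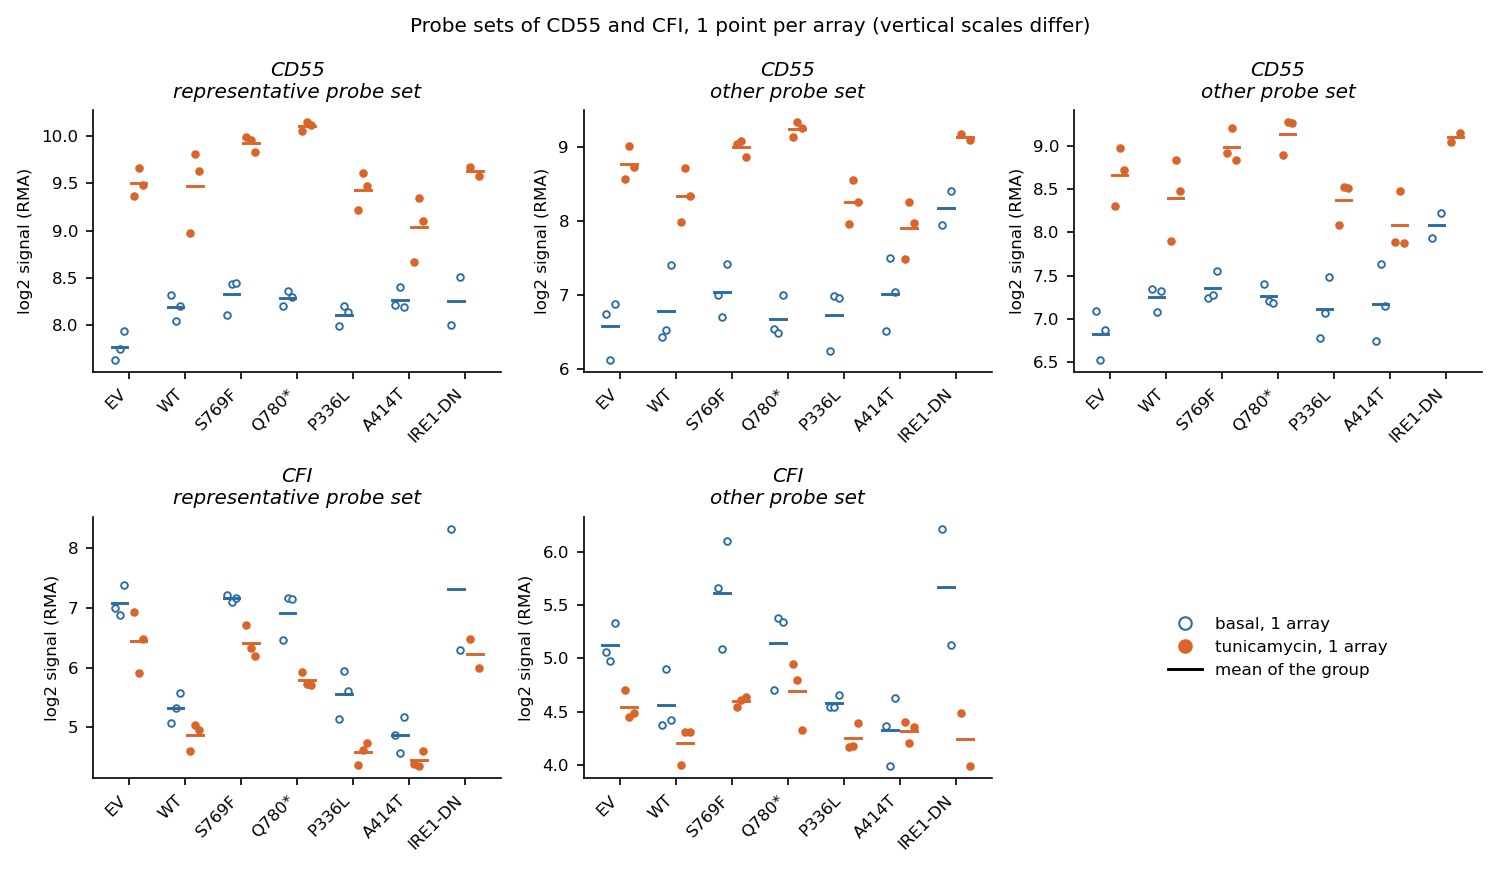
The log2 signal (RMA) of the 3 CD55 and 2 CFI probe sets that passed the filter, by line, with open blue points for basal arrays, filled orange points for arrays on tunicamycin and a bar at each group mean. All CD55 probe sets rise on tunicamycin, the other 2 start higher in IRE1-DN cells than in EV cells, and the other CFI probe set spans less than the representative one.

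The second tested CFI probe set, whose highest array was 6.21, ran in the same direction as the first in WT, P336L and A414T cells but passed against EV cells only in basal A414T cells (log2 fold change -0.80, adjusted p = 0.0204, over 42251 probe sets). It fell on tunicamycin in S769F (-1.01, adjusted p = 0.00159) and IRE1-DN cells (-1.42, adjusted p = 0.000636). C1S had a second probe set, which 1 of 40 arrays brought to the filter, so that C1S, C3, C1R, CFB and PTX3 rest on 1 probe set each.

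PTX3 fell on tunicamycin in 5 of 7 lines and responded least alike of all members. Its basal signal was 9.28, 9.41 and 9.57 in EV, 10.32, 10.47 and 10.06 in WT, 9.56, 9.60 and 9.79 in Q780*, 9.71, 9.58 and 9.56 in S769F, 10.02, 10.16 and 9.92 in P336L, 10.43, 10.42 and 10.41 in A414T, and 8.80 and 8.59 in IRE1-DN cells. IRE1-DN arrays were the lowest and A414T and WT arrays among the highest, and the EV arrays overlapped those of S769F and Q780* cells. PTX3 was 1.99-fold higher than in EV cells in A414T (log2 fold change 0.996, standard error 0.255, adjusted p = 0.00446) and 1.82-fold in WT cells (0.86, adjusted p = 0.0278), the latter not without WT replicate 1 or 2 (adjusted p = 0.0855 and 0.13) or EV replicate 1 or 2 (adjusted p = 0.105 and 0.0769). IRE1-DN cells were 1.65-fold lower (log2 fold change -0.72, adjusted p = 0.0583).

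On tunicamycin the order changed. PTX3 measured 7.08, 6.88 and 6.20 in EV, 6.90, 6.49 and 5.72 in A414T, 7.99, 7.71 and 7.42 in WT, 7.75, 7.68 and 7.90 in Q780*, 8.33, 8.77 and 8.45 in S769F, 9.24, 9.48 and 9.43 in P336L, and 10.14 and 8.68 in IRE1-DN cells. By group mean A414T cells were the highest under basal conditions and the lowest on tunicamycin, where they overlapped EV cells. IRE1-DN cells ran the other way, although their stressed arrays lay far apart. The fall was 16.5-fold in A414T (log2 fold change -4.05, standard error 0.26, adjusted p = 1.2e-13), 6.50-fold in EV (-2.70, adjusted p = 1.37e-09), 5.98-fold in WT (-2.58, adjusted p = 4.95e-09), 3.67-fold in Q780* (-1.88, adjusted p = 5.27e-07) and 2.15-fold in S769F cells (-1.10, adjusted p = 0.000993). In P336L cells the log2 change was -0.65 (95% interval -1.17 to -0.13, adjusted p = 0.0602) and in IRE1-DN cells 0.72 (0.08 to 1.36, adjusted p = 0.117).

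Tests of the difference in response set these lines apart. The log2 response of PTX3 exceeded that of EV cells by 3.42 in IRE1-DN (standard error 0.40, adjusted p = 1.38e-06), 2.05 in P336L (adjusted p = 0.00301) and 1.60 in S769F cells (adjusted p = 0.031), while the difference was -1.35 in A414T cells (adjusted p = 0.0187). The S769F value did not pass without any basal S769F replicate, stressed S769F replicate 2 or 3, basal EV replicate 2 or 3, or stressed EV replicate 3 (adjusted p = 0.053 to 0.153, the highest without the last), nor with the ACTB covariate (adjusted p = 0.0657). The A414T value did not pass without stressed A414T replicate 3 (adjusted p = 0.0933) or stressed EV replicate 1 or 2 (adjusted p = 0.0638 and 0.0528). In WT cells the response differed by 0.12 (95% interval -0.62 to 0.86) and in Q780* cells by 0.83 (0.09 to 1.56, adjusted p = 0.437). PTX3 on tunicamycin was thus above its level in EV cells in all lines but A414T, from 1.98-fold in WT (adjusted p = 0.00819) to 6.34-fold in P336L (adjusted p = 5.28e-09) and 6.47-fold in IRE1-DN cells (adjusted p = 8.23e-09). The WT and Q780* values rested in part on stressed EV replicate 3, the lowest EV array, without which the adjusted p was 0.0963 and 0.0742, and the WT value also on WT replicate 1 (adjusted p = 0.059 without it).

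**Figure D4:**
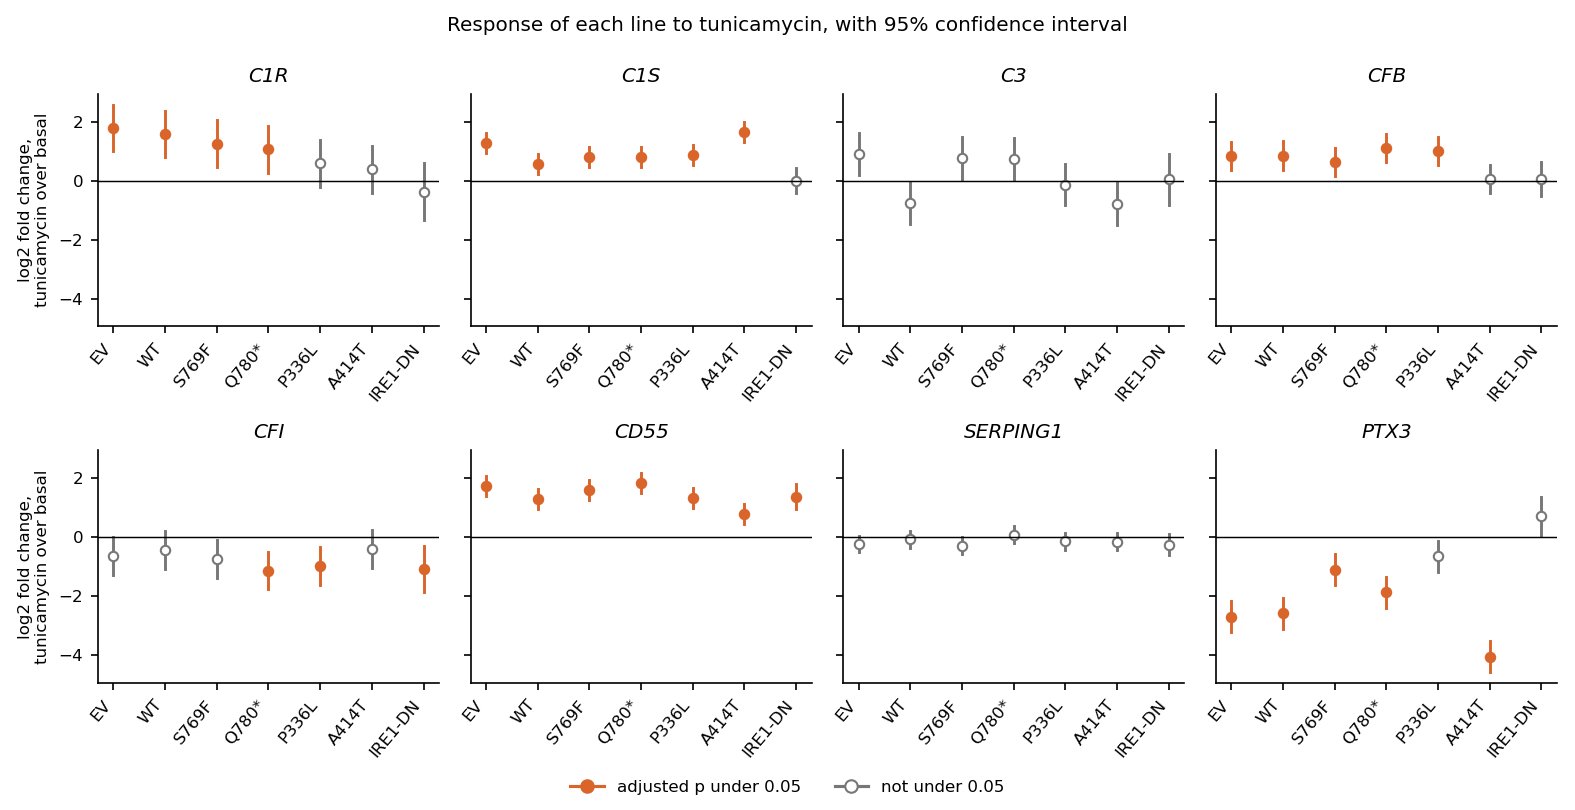
The log2 fold change on tunicamycin over basal conditions for 8 tested genes in 7 lines, with points for the estimate and bars for the 95% confidence interval, filled orange where the adjusted p is under 0.05 and open grey where it is not. CD55 rises in every line, C1R, C1S and CFB rise in most lines, and the PTX3 responses run from -4.05 in A414T to 0.72 in IRE1-DN cells.

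Counted by line, the response to tunicamycin passed for 5 of 8 members in EV cells (C1R, C1S, CFB and CD55 higher, PTX3 lower), against 31% of all genes. The same 4 rose and PTX3 fell in WT cells, where 29.3% of all genes passed, and in S769F cells, where 30.6% did. In Q780* cells 6 members passed, with CFI also lower, against 36%, and in P336L cells 4 passed (C1S, CFB and CD55 higher, CFI lower), against 26%. A414T cells had 3 (C1S and CD55 higher, PTX3 lower), against 33.1%, and IRE1-DN cells 2 (CD55 higher, CFI lower), against 19.8%. The difference from the response of EV cells passed for 3 members in A414T cells (C3, CD55 and PTX3 lower, against 6.83% of all genes) and 3 in IRE1-DN cells (PTX3 higher, C1R and C1S lower, against 5.2%). It passed for PTX3 alone in S769F (0.494% of all genes) and P336L cells (0.814%), and for 0 members in WT (0.5%) and Q780* cells (0.919%). At an unadjusted p under 0.05, C3 and C1S did so in WT cells and PTX3 in Q780* cells, all from limma, and the methods' t-test was not run on these differences.

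A414T was also set against WT cells, a separate line that overexpresses IRE1 without the variant. Under basal conditions C3, C1R and C1S were lower in A414T cells and no member was higher, which makes 3 of 8 against 15.4% of all genes. C1S was 8.04-fold lower (log2 fold change -3.01, standard error 0.17, adjusted p = 2.27e-14), C3 3.23-fold (adjusted p = 0.000637) and C1R 3.13-fold (adjusted p = 0.0026). On tunicamycin 5 of 8 were lower, C3, C1R, C1S, CFB and PTX3, against 17.7% of all genes. C1R was then 7.17-fold lower (log2 fold change -2.84, adjusted p = 2.04e-06), C1S 3.80-fold, C3 3.30-fold, PTX3 2.52-fold and CFB 2.04-fold. CFI, low in both, differed by -0.45 (95% interval -1.09 to 0.19) and -0.42 log2 units (-1.06 to 0.22).

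Among 51 other complement and pentraxin genes on the array, 38 were tested, and most were dim. Their counts in EV cells on tunicamycin stand beside the 31% of all genes that passed there. In the classical and lectin pathways 1 of 10 tested genes passed in EV cells on tunicamycin, C1RL, a protease related to C1r, which rose 1.90 log2 units (adjusted p = 3.84e-09). It rose in all 7 lines. On tunicamycin C1RL was lower than in EV cells in A414T (-1.12, adjusted p = 3.04e-05), S769F and P336L cells. Under basal conditions it was lower than in EV cells in A414T and higher in IRE1-DN cells. The C1q chains C1QA, C1QB and C1QC stayed below the filter. Of 4 tested alternative and terminal pathway genes 0 passed in EV cells, and C5 alone passed anywhere, in IRE1-DN and P336L cells. C6, C7 and C8B were tested and passed in none of the 27 comparisons.

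Of 11 tested regulators, CLU and THBD rose and CD59 fell in EV cells on tunicamycin. CD59, which blocks the membrane attack complex, fell in all 7 lines (log2 change -0.72 to -0.92), whereas CD55 rose in all 7. CD59 was also lower than in EV cells in WT, P336L, A414T and IRE1-DN cells under both conditions, most in WT cells on tunicamycin (-1.18, adjusted p = 5.31e-11). CLU (clusterin), an inhibitor of the terminal complex, rose in all 7 lines, by 0.77 to 1.03, and was lower than in EV cells in A414T and IRE1-DN cells under both conditions. THBD (thrombomodulin), a cofactor in the activation of protein C, was higher in basal WT (1.47, adjusted p = 0.000577), P336L and A414T cells. The lowest THBD group mean, 4.18, lay below the filter, so that its sizes may be compressed. CFHR2, a factor H related protein, was higher in IRE1-DN cells (1.18 basal and 1.03 on tunicamycin) and in S769F cells on tunicamycin (0.86, adjusted p = 0.0456). CD46, the cofactor of factor I on the cell surface, lay between 10.13 and 10.65 on all arrays and was lower than in EV cells in A414T cells.

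Of 9 tested receptors, C5AR1 rose and C1QBP fell in EV cells on tunicamycin. C5AR1, the receptor of the anaphylatoxin C5a, rose in all 7 lines, by 0.99 to 2.42 log2 units. On tunicamycin it was lower than in EV cells in A414T (-1.003, adjusted p = 0.000574) and IRE1-DN cells (-1.09, adjusted p = 0.000657). It was higher in Q780* cells (0.67, adjusted p = 0.0413). C5AR1 reached the filter on 19 of 40 arrays, and its lowest group mean, 3.42, lay below it, so that these sizes may be compressed. Of 4 tested pentraxins and partners, NPTXR rose and NPTX1 fell in EV cells. TNFAIP6 (TSG-6), a matrix protein that binds pentraxin 3, passed for a response to tunicamycin in no line. It was lower than in EV cells in A414T (-2.02 basal, adjusted p = 2.43e-07) and IRE1-DN cells (-2.42 basal, adjusted p = 3.97e-08) under both conditions. TNFAIP6 reached the filter on 34 of 40 arrays, and its lowest group mean, 3.84, lay below it. The sizes may thus be compressed, and a response of arrays below the filter could not be read.

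A list of inducers of complement and PTX3 also took in genes of their signalling, among them the inhibitors NFKBIA and SOCS3. Of its 17 tested genes, IL1A, CEBPB and XBP1 rose and IL1B, LIF, STAT3 and SOCS3 fell in EV cells on tunicamycin. This makes 7 of 17 against 31% of all genes. NFKB1 was higher than in EV cells in all 6 lines under both conditions, by 1.19 to 1.63 log2 units. Within each condition these comparisons share the same EV arrays, so that a low level particular to EV cells cannot be told apart from an effect of the constructs. In basal WT cells 7 genes of the list were higher and 0 lower, against 8.58% of all genes. Among the 7 were IL1B (2.81, adjusted p = 1.23e-08), IL6 (2.80, adjusted p = 1.05e-06), LIF (1.89), IL1A (1.67) and the inhibitor NFKBIA. In basal P336L cells 5 were higher and 0 lower, against 9.1% of all genes, IL1B (1.82) and IL6 (1.65) among them. IL1B was lower in basal IRE1-DN cells (-3.53, adjusted p = 1.43e-10) and fell on tunicamycin in every line except IRE1-DN. The lowest IL1B group mean, 4.67, lay near the filter, so that a fall from such a level may be compressed and could hardly be read. NFKBIA was higher in WT, A414T and IRE1-DN cells under both conditions, and SOCS3 fell in all 7 lines (-3.15 to -4.13). SOCS3 reached the filter on 36 of 40 arrays. The lowest group means of IL1A and IL6, 4.21 and 4.23, lay at or below it, so that the sizes for these 3 genes may be compressed. The median basal log2 difference over the 17 tested genes of the list was 0.32 in WT, 0.35 in P336L and -0.17 in IRE1-DN cells. Over all genes it was 0.01, 0.02 and -0.03.

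**Figure D5:**
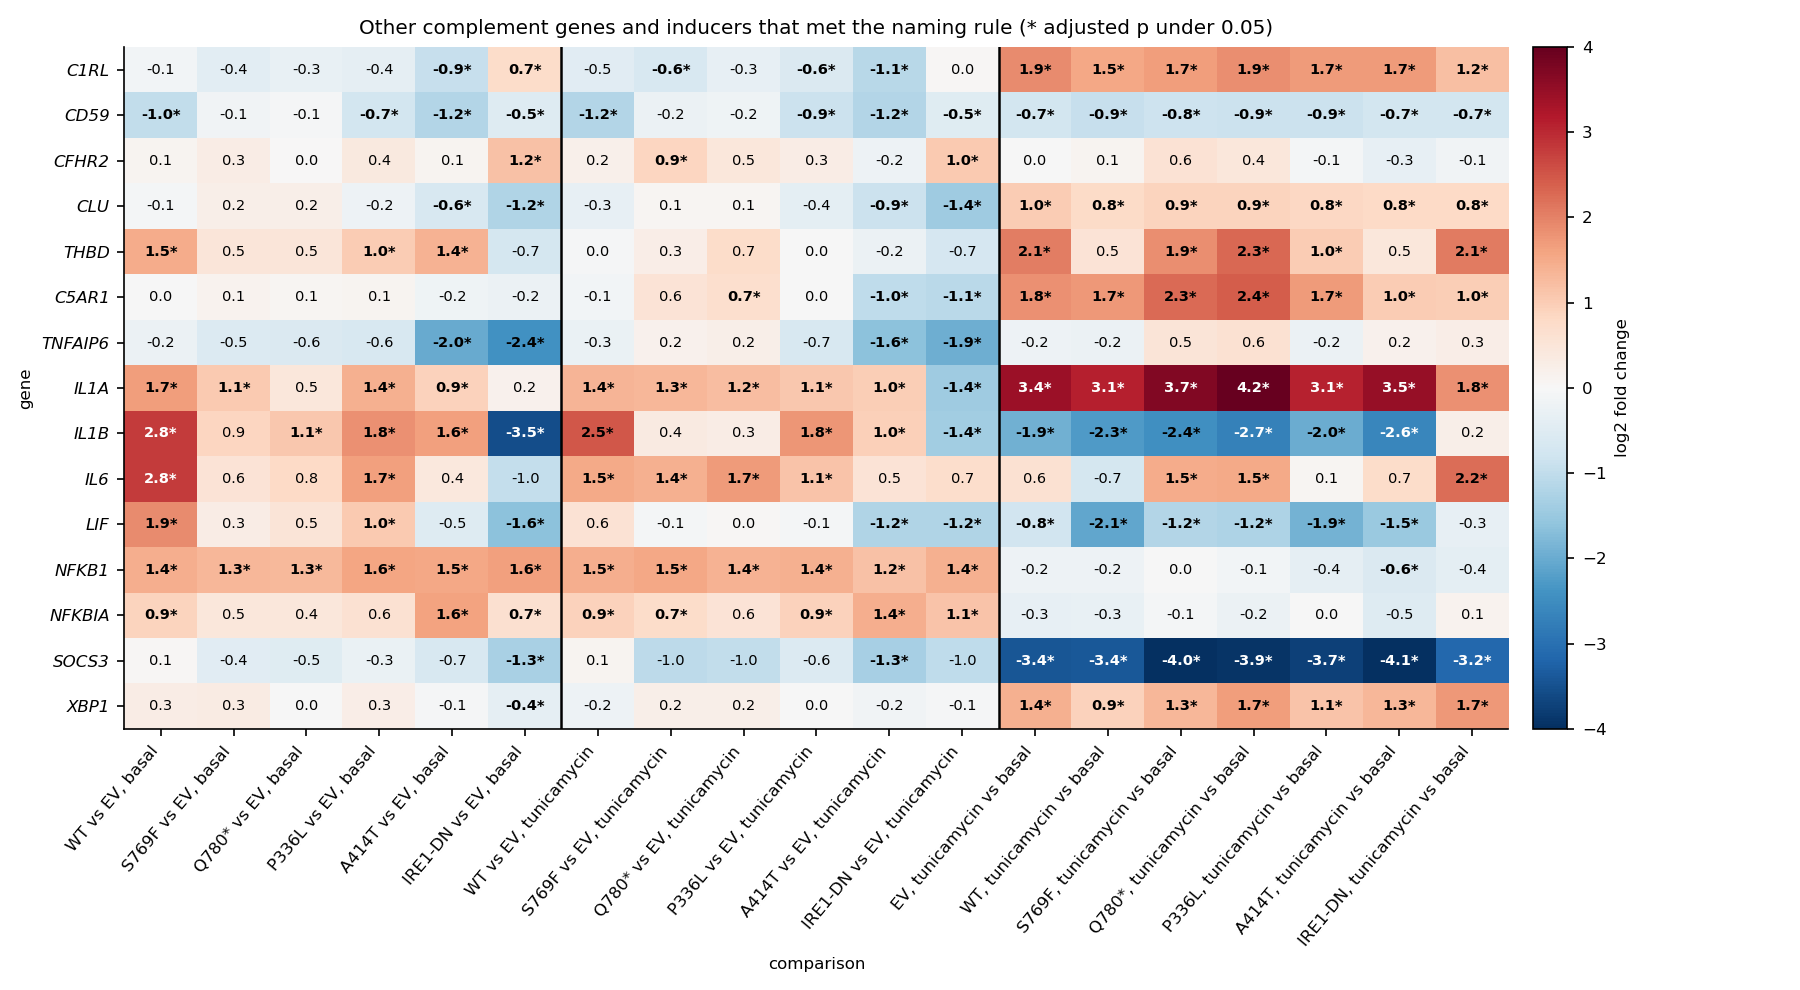
The log2 fold change of 15 other genes of the complement, pentraxin and inducer lists, against EV cells (basal, then tunicamycin) and for the response of each line, with bold values and an asterisk where the adjusted p is under 0.05. C1RL, CLU, C5AR1, IL1A and XBP1 rise and CD59 and SOCS3 fall on tunicamycin in all 7 lines, and TNFAIP6 is lower in A414T and IRE1-DN cells.

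For each tested member, the 3 genes whose 14 group means ran most like its own were listed, by Pearson's r over the same 40 arrays. They were LINC01588 (0.97), CSTB (0.94) and IL36B (0.92) for C3, SLAMF7 (0.95), ZDHHC9 (0.93) and CCNYL2 (0.93) for C1R, and SKP1 (0.95), SCPEP1 (0.95) and HSPB8 (0.94) for C1S. For CFB they were ATG2A, CCDC93 and MDGA2 (0.96 to 0.97) and for CFI TNFRSF11B (0.95), TGOLN2 (0.94) and FAP (0.91). CD55 ran most like SUPV3L1, SPIRE1 and WDR81 (0.98 to 0.99), PTX3 like DDX21 (0.93), EIF3J (0.91) and GEMIN4 (0.91), and SERPING1, which hardly varied, like EMX1, RECQL4 and AKAIN1 (0.86 to 0.88). No member was among the 3 genes most like another.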

How the data were processed

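Total RNA (6 µg) of 40 samples was hybridized to Affymetrix arrays. The authors deposited 1 table of RMA signals on the log2 scale, for 54715 probe sets. RMA removes changes shared by most genes and compresses dim ones. Of the probe sets, 40920 had 1 gene symbol (updated through the Entrez ID for 40858), 864 had several and were left out, and 12931 had none. The 14 groups were taken from the sample labels.

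For each of 19774 genes the brightest probe set by its mean on all arrays was used. Testing was limited to the 17191 genes that reached the array's 40th percentile on 2 or more arrays. A limma model (version 3.58.1, R 4.3.3) with 1 mean per group took in all 40 arrays (26 residual degrees of freedom), with Benjamini-Hochberg adjustment over all tested genes, and 27 comparisons were made. A gene passed at an adjusted p under 0.05, with no fold minimum. All tests were two-sided. The script was tested on simulated data. Named genes were the 9 members, the other complement, pentraxin and inducer genes of fixed lists, and the 3 genes most like each member. The members and lists were chosen with earlier results of these data known.

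Replicate numbers were taken to pair samples where every same-numbered pair of arrays deviated together (r over 0.1). This held in 6 of 21 comparisons: WT, S769F and Q780* against EV cells under basal conditions, WT and Q780* against EV cells on tunicamycin, and A414T against WT cells on tunicamycin. Alternatives were other probe set rules and filters, a replicate block, only the arrays compared, the methods' t-test, a 2-fold minimum, the ACTB 3′ minus 5′ signal as a covariate, each array left out, and, chosen after seeing the data, the bioB hybridization control as a covariate. The number of arrays limits the precision. Plots come from matplotlib 3.10.9 (Python 3.11.15).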

Additional observations from a re-analysis of the deposited data

Results flagged for a closer look

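In 8 cases the tunicamycin response of a member in one line differed from that in EV cells by a test of the difference itself (limma, adjusted p under 0.05 over all genes). For PTX3 the log2 response minus that of EV cells was 3.42 in IRE1-DN, 2.05 in P336L, 1.60 in S769F and -1.35 in A414T cells. For C3 it was -1.67 and for CD55 -0.96, both in A414T cells. In IRE1-DN cells it was -2.15 for C1R and -1.26 for C1S. All 8 are set against the same EV arrays, 3 basal and 3 on tunicamycin. The PTX3 values of IRE1-DN and P336L cells, the CD55 value and the C1S value passed without any single array. No cause was tested.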

How the results depend on the processing

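Over the 8 tested members, 17 differences from EV cells passed under basal conditions, 19 on tunicamycin, 30 tunicamycin responses, 8 response differences and 8 differences between A414T and WT cells. No passing difference reversed under any alternative run. The basal count was 11 with only replicates 2 and 3, 9 with a 2-fold minimum and 3 by the methods' t-test with Benjamini-Hochberg adjustment, by which the stressed count was 8, the responses 18 and the A414T against WT count 4. Without adjustment that t-test gave 22, 22, 31 and 8. Response differences numbered 3 with only the arrays compared, 4 with the replicate block on those arrays and 5 with only replicates 2 and 3. Leaving out 1 array gave 13 to 19, 16 to 19, 27 to 32, 5 to 9 and 8 to 9, in the order of the first sentence, and response differences fell to 5 without basal EV replicate 2 or stressed EV replicate 3. Of 82 passing differences, 23 were lost without at least 1 array. The replicate block over all arrays gave 20, 20, 31, 8 and 9. In the 6 comparisons that pair, the block on the arrays compared changed the calls given in the text and no other. The bioB covariate, chosen after seeing the data, gave 18, 19, 28, 8 and 8, and the ACTB covariate 17, 18, 29, 6 and 8. Causes were not tested. Signals near the filter limit what can be said of CFB, SERPING1 and CFD. Among the other genes they limit C5AR1, TNFAIP6, SOCS3, IL1A, IL6 and THBD, and to a lesser degree LIF and IL1B (lowest group means 4.47 and 4.67).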
